A study of Penicillium oxalicum with 12 samples.

Results

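In Penicillium oxalicum, 6 genes described as cellobiohydrolases or endoglucanases were followed across 4 strains. They were listed by locus identifier, carry these descriptions in the deposited table and make up 6 of its 9931 genes. They are not all the genes so described, and the others are given after them. All 6 passed the filter on low values (FPKM of 1 or more in 3 or more libraries). PDE_07945 is described as a cellobiohydrolase and PDE_07124 as cellobiohydrolase II. PDE_07929 is described as the endo-beta-1,4-glucanase Cel7B, and PDE_09226 and PDE_05193 each as a putative endo-beta-1,4-glucanase. PDE_07928 is described as a glycoside hydrolase 45 protein, with the KEGG names endoglucanase and mannan endo-1,4-beta-mannosidase. RNA came from mycelia, with 3 libraries of each strain. WT is the wild type 114-2, DlaeA lacks laeA, and H2BK123A and H2BK131A each carry alanine in place of 1 lysine of histone H2B, at the position in the strain's name. All strains had a pre-culture of 22 h at 30 °C and were sampled 24 h after transfer to Mandel's medium, both with 2% glucose. The number of independent transformants behind each mutant is not given in the sources used here. Whether a strain's 3 libraries stem from separate cultures is not in the labels, and the p-values therefore cover library to library spread alone, which may be technical.

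Cellulose is a chain of glucose units that no single enzyme takes apart. Cellobiohydrolases work along the chain from its ends and release the disaccharide cellobiose, endoglucanases cut within the chain, and beta-glucosidases split cellobiose into glucose. In filamentous fungi these enzymes are secreted, their genes are induced by cellulose or its breakdown products, and glucose represses them. The media here were made with glucose, but how much of it was left in each strain at sampling is not given. Whether the levels below are repressed levels was therefore not tested. LaeA is a methyltransferase-like regulator known in filamentous fungi for its effect on secondary metabolite clusters and development, and histone H2B is a core protein of the nucleosome.

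FPKM, the fragments of a gene per kilobase of its transcript scaled to the mapped fragments of a library, summed to between 709483.7 and 764698.6 per library, and the median gene was at 20.5 to 25.1. PDE_00584, taken from recall as laeA, read 33.94 to 37.93 in WT and 0.11, 0.05 and 0 in DlaeA. The codon changes in the H2B mutants cannot be seen in expression values. WT libraries varied more than the others, with the median gene having an SD of 0.223 in WT and of 0.111 to 0.124 in the mutants on the log2(FPKM + 1) scale. Summed over 4 genes described as conidiation or spore wall genes, markers of asexual structures, FPKM was 124 to 446 in WT, 789.85 to 819.24 in DlaeA, 100.62 to 209.65 in H2BK123A and 100.23 to 543.2 in H2BK131A. None of the 4 was at 0 in any library. PDE_00087 has the KEGG name BrlA, a regulator of conidium formation. It was at 5.67 to 28.93 in WT, 411.62 to 448.76 in DlaeA, 8.95 to 18.16 in H2BK123A and 1.9 to 2.06 in H2BK131A. PDE_00079, with the same KEGG name, was at 0.15 to 0.58 in WT, 1.51 to 3.26 in DlaeA, 0.59 to 1.2 in H2BK123A and 0.15 to 0.59 in H2BK131A. The FlbD gene PDE_03008 had the same direction as PDE_00087 in DlaeA (365.4 to 375.7, against 63.76 to 138.36 in WT) and in H2BK131A (3.89 to 6.49). The spore wall gene DIT1 (PDE_01188) went the other way in DlaeA, at 376.45, 5.93 and 164.12 in WT and 1.02, 0.91 and 0.61 in DlaeA, and at 92.7, 536.66 and 420.32 it made up most of the sum in H2BK131A. The part of these genes in the results was not tested. RNA came from whole mycelia, so fewer cells of a type and less RNA per cell cannot be told apart.

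The pattern over the 6 genes differed between the mutants. In DlaeA the glycoside hydrolase 45 gene PDE_07928 fell to a mean FPKM of 0.54 from 17.9 in WT, while the endoglucanase gene PDE_05193 rose from 0.17 to 8.97. In H2BK123A, 4 of the genes fell, PDE_07945 and PDE_07928 most. In H2BK131A all 6 differed from WT, 5 of them lower and PDE_05193 higher. Genes were called at an adjusted p under 0.05 in limma with the Benjamini-Hochberg adjustment over the 9431 genes tested in a comparison.

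By that rule 4 of the 6 genes were called in DlaeA against WT, 2 higher and 2 lower, where 69.9% of all tested genes were called. In H2BK123A 4 were called, all lower, where 46.6% of all genes were called and 13.1% were called lower. In H2BK131A all 6 were called, where 70.8% of all genes were called, and 5 were lower, where 30.2% of all genes were. PDE_05193 is counted as higher in DlaeA and H2BK131A, and it passed the filter on low values through those strains alone. With its low values in WT, it could be tested only by being higher elsewhere. The median log2 fold change of the 6 genes was -0.08 in DlaeA, -0.74 in H2BK123A and -1.54 in H2BK131A, beside 0.27, 0.18 and 0.13 over all tested genes. These positive medians depend on the scaling: with libraries scaled by their median ratio they were 0.02, -0.01 and -0.02. Differences relative to the median gene are therefore also given below. Libraries did not overlap with those of WT for 4 of the genes in DlaeA, 4 in H2BK123A and 6 in H2BK131A, beside 70.3%, 52.7% and 70.5% of all tested genes. The 3 comparisons use the same WT libraries and are not independent of each other.

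**Figure D1:**
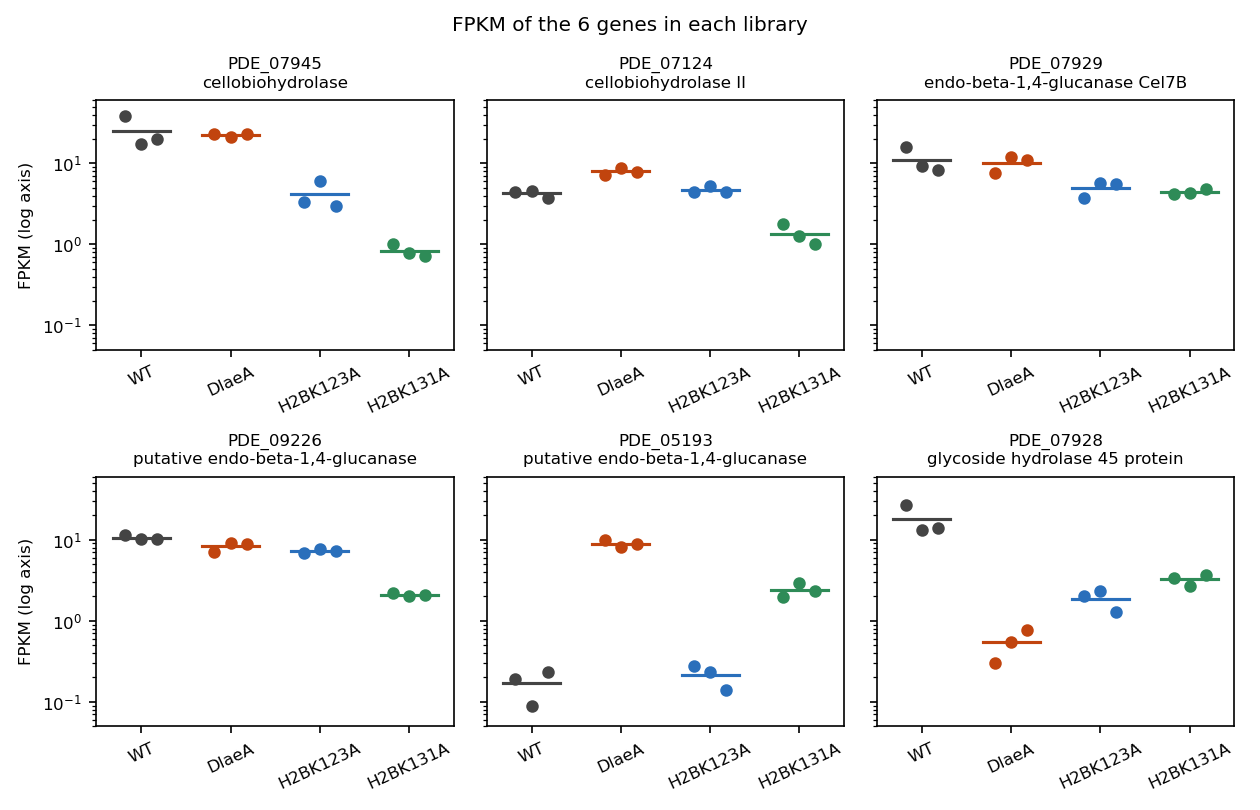
FPKM of each of the 6 genes (vertical axis, log scale) in every library of the 4 strains, points being single libraries and bars the mean of 3. PDE_07928 is highest in WT and lowest in DlaeA, while PDE_05193 lies below 0.3 in WT and H2BK123A and above 8 in DlaeA.

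The cellobiohydrolase gene PDE_07945 was the highest of the 6 in WT and the lowest in H2BK131A. Its FPKM was 38.16, 17.13 and 19.78 in the WT libraries and 22.71, 21.36 and 22.75 in DlaeA, so these strains overlapped. In H2BK123A it was 3.34, 6.08 and 2.99, and in H2BK131A 1.00, 0.77 and 0.72. All 6 libraries of the H2B mutants lay below every library of the other strains, and those of H2BK131A lay below those of H2BK123A. Mean FPKM was 25.02 ± 11.5 (SD, n = 3) in WT, 22.3 ± 0.79 in DlaeA, 4.14 ± 1.69 in H2BK123A and 0.83 ± 0.149 in H2BK131A.

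On the log2(FPKM + 1) scale, PDE_07945 fell by 2.30 ± 0.27 (SE) in H2BK123A, with an adjusted p of 6.23e-05 in limma. It fell by 3.75 ± 0.27 in H2BK131A, with an adjusted p of 1.86e-07 in limma. The ratio of mean FPKM was 6.05-fold lower and 30.1-fold lower in these strains. In DlaeA the difference was -0.08, with a 95% interval from -0.67 to 0.51 and an adjusted p of 0.814 in limma. Relative to the median gene the differences were -0.35 in DlaeA, -2.48 in H2BK123A and -3.88 in H2BK131A. WT 1 was the highest WT library, and without it the differences in the H2B mutants were -1.97 and -3.41.

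The other cellobiohydrolase gene, PDE_07124, rose in DlaeA and fell in H2BK131A. It was at FPKM 4.48, 4.56 and 3.69 in WT, 7.22, 8.74 and 7.84 in DlaeA, 4.38, 5.28 and 4.47 in H2BK123A, and 1.80, 1.26 and 1.00 in H2BK131A. The DlaeA libraries all lay above, and the H2BK131A libraries all below, those of WT and H2BK123A, which overlapped. It rose by 0.77 ± 0.14 (SE) in DlaeA, with an adjusted p of 0.00053 in limma, and its mean was 1.87-fold that of WT. It fell by 1.17 ± 0.14 in H2BK131A, with an adjusted p of 1.76e-05 in limma, and its mean was 3.14-fold lower. In H2BK123A the difference was 0.12, with an interval from -0.19 to 0.44 and an adjusted p of 0.508 in limma. Relative to the median gene the differences were 0.50, -0.06 and -1.29 in DlaeA, H2BK123A and H2BK131A.

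The 2 cellobiohydrolase genes were also compared within each library. In WT PDE_07945 was at 8.52, 3.76 and 5.36 times the FPKM of PDE_07124, and in DlaeA at 3.15, 2.44 and 2.90 times. In H2BK123A the ratio was 0.763, 1.152 and 0.669, and in H2BK131A 0.556, 0.611 and 0.72. FPKM is a level per length, so the ratio depends on the gene lengths the authors used, but its change between strains does not.

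Among the endoglucanase genes, Cel7B (PDE_07929) was lower in both H2B mutants and close to WT in DlaeA. Its FPKM was 15.75, 9.30 and 8.15 in WT, 7.61, 11.90 and 10.90 in DlaeA, 3.73, 5.75 and 5.53 in H2BK123A, and 4.21, 4.27 and 4.83 in H2BK131A. WT and DlaeA overlapped, as did the H2B mutants, and no H2B mutant library reached the lowest WT or DlaeA library. It fell by 0.97 ± 0.23 (SE) in H2BK123A, with an adjusted p of 0.00506 in limma, and by 1.10 ± 0.23 in H2BK131A, with an adjusted p of 0.00109 in limma. The DlaeA difference was -0.09, with an interval from -0.59 to 0.42 and an adjusted p of 0.756 in limma. Relative to the median gene the differences were -0.36, -1.153 and -1.23 in DlaeA, H2BK123A and H2BK131A.

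PDE_09226, a putative endo-beta-1,4-glucanase gene, was steady between WT libraries, at FPKM 11.53, 10.20 and 10.20. It was at 6.97, 9.09 and 8.91 in DlaeA, 6.95, 7.61 and 7.17 in H2BK123A, and 2.23, 2.03 and 2.06 in H2BK131A. H2BK131A stood apart from the other 9 libraries, and DlaeA and H2BK123A overlapped. The gene fell by 1.90 ± 0.11 (SE) in H2BK131A, with an adjusted p of 4.6e-08 in limma, and its mean was 5.05-fold lower than in WT. In H2BK123A it fell by 0.50 ± 0.11, with an adjusted p of 0.00445 in limma. In DlaeA it fell by 0.33 ± 0.11, with an adjusted p of 0.0237 in limma. The DlaeA call was lost without WT 1 (-0.27, adjusted p = 0.0772 in limma) and without DlaeA 1 (-0.22, adjusted p = 0.0948 in limma), and with other settings given in the closing section. Relative to the median gene the differences were -0.60, -0.68 and -2.03 in DlaeA, H2BK123A and H2BK131A.

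PDE_05193, the other putative endo-beta-1,4-glucanase gene, was high in DlaeA, intermediate in H2BK131A and close to 0 elsewhere. It was at FPKM 0.19, 0.09 and 0.23 in WT and 0.28, 0.23 and 0.14 in H2BK123A. In DlaeA it was at 9.98, 8.18 and 8.75, and in H2BK131A at 1.94, 2.95 and 2.33. It passed the filter through DlaeA and H2BK131A alone, so a gene with this profile had to differ between strains. Its low values fitted whole multiples of 0.047 FPKM, the largest step that these same values allowed within rounding. If 1 such step is 1 read, which was not tested, they rest on 4, 2 and 5 reads in WT and 6, 5 and 3 in H2BK123A.

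It rose by 3.09 ± 0.14 (SE) on the log2(FPKM + 1) scale in DlaeA, with an adjusted p of 3.84e-09 in limma. In H2BK131A it rose by 1.53 ± 0.14, with an adjusted p of 1.17e-06 in limma. The pseudocount of 1 shrinks these values: with 0.1 in its place they were 5.10 and 3.23, and the ratios of mean FPKM were 52.8 and 14.2. In H2BK123A the difference was 0.06, with an interval from -0.24 to 0.36 and an adjusted p of 0.760 in limma. Relative to the median gene the differences were 2.82, -0.12 and 1.40 in DlaeA, H2BK123A and H2BK131A.

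The glycoside hydrolase 45 gene PDE_07928, of a family known for small endoglucanases, fell in all 3 mutants, with every mutant library below every WT library. It was at FPKM 26.63, 13.04 and 14.17 in WT, 0.30, 0.54 and 0.78 in DlaeA, 2.03, 2.30 and 1.27 in H2BK123A, and 3.40, 2.69 and 3.63 in H2BK131A. No pair of strains overlapped. It fell by 3.56 ± 0.25 (SE) in DlaeA, with an adjusted p of 1.62e-07 in limma. It fell by 2.67 ± 0.25 in H2BK123A and by 2.10 ± 0.25 in H2BK131A, with adjusted p of 1.25e-05 and 1.11e-05 in limma. Mean FPKM was 33.2-fold, 9.61-fold and 5.54-fold lower than in WT. Relative to the median gene the differences were -3.83, -2.85 and -2.23. WT 1 was again the highest library, and without it the differences from WT were -3.26, -2.37 and -1.79.

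PDE_07928 and Cel7B (PDE_07929) carry consecutive locus numbers and separated in DlaeA. The ratio of PDE_07928 to PDE_07929 in FPKM was 1.69, 1.40 and 1.74 in WT and 0.0394, 0.0454 and 0.0716 in DlaeA. It was 0.544, 0.4 and 0.230 in H2BK123A and 0.808, 0.63 and 0.752 in H2BK131A. The 4 strains did not overlap in this ratio.

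**Figure D2:**
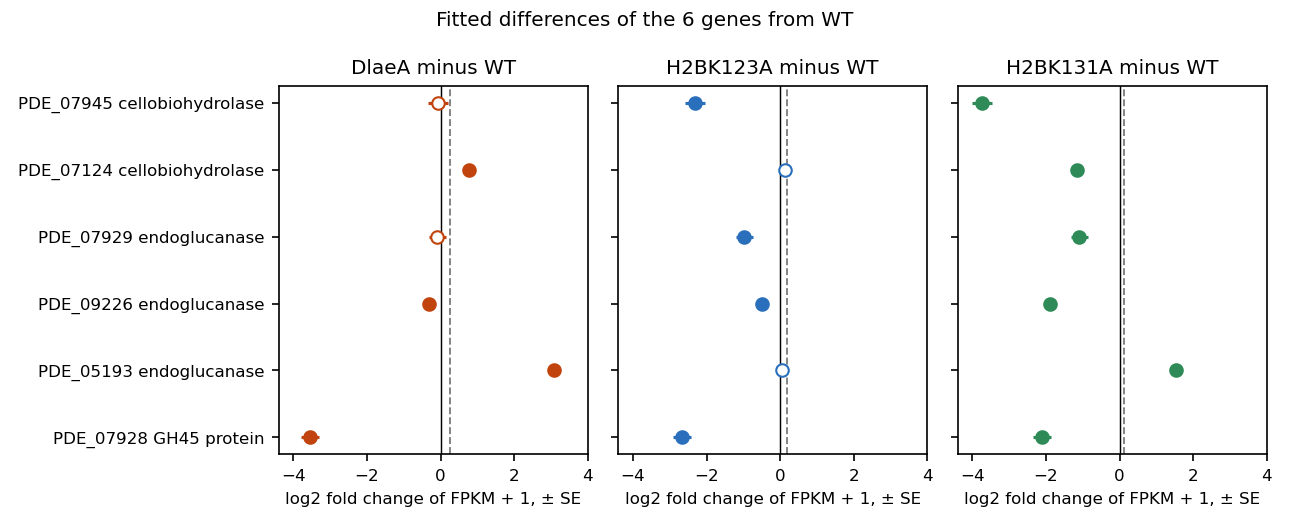
Log2 fold change against WT with its SE (horizontal axis, log2(FPKM + 1) scale) for each of the 6 genes in the 3 mutants, filled where called and open where not; the dashed line is the median of all tested genes. PDE_07928 lies left of 0 in every panel, while PDE_05193 lies right of 0 in DlaeA (3.09) and H2BK131A (1.53).

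The mutants also differed from each other. Against DlaeA, H2BK123A had 5 of the 6 genes called, 4 lower and 1 higher, where 61.2% of all genes were called, 33.1% lower and 28.1% higher. H2BK131A had all 6 called against DlaeA, 5 lower and 1 higher, where 77.5% of all genes were called, 41.3% lower and 36.2% higher. In H2BK131A against H2BK123A 4 were called, 3 lower and 1 higher, where 68.7% of all genes were called, 35.8% lower and 32.9% higher. PDE_05193 is among the genes called each time, and it passed the filter on low values through DlaeA and H2BK131A alone. Libraries did not overlap for 5, 6 and 5 of the genes in these comparisons, beside 74.0%, 83.4% and 78.5% of all genes. The gene higher than in DlaeA was PDE_07928 both times, by 0.89 in H2BK123A (adjusted p = 0.00787 in limma) and by 1.47 in H2BK131A (adjusted p = 0.000164 in limma). With a pseudocount of 0.1 these values were 1.65 and 2.45, and the H2BK123A call was lost with quantile scaling (0.62, adjusted p = 0.0561 in limma).

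Against DlaeA, PDE_05193 differed by -3.03 in H2BK123A and by -1.56 in H2BK131A, and PDE_07945 by -2.23 and -3.67. PDE_07124 differed from DlaeA by -0.65 in H2BK123A and by -1.94 in H2BK131A, and Cel7B by -0.89 and -1.02. For PDE_09226 the DlaeA to H2BK123A difference was -0.17, with an interval from -0.42 to 0.08 and an adjusted p of 0.219 in limma, while H2BK131A differed from DlaeA by -1.58. The other differences in these sentences were all called in limma. The WT, DlaeA, H2BK123A, H2BK131A order of mean FPKM held for PDE_07945, PDE_07929 and PDE_09226, with neighbours not called apart at WT and DlaeA for PDE_07945 and PDE_07929, at DlaeA and H2BK123A for PDE_09226 and at the H2B mutants for PDE_07929.

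In H2BK131A against H2BK123A, PDE_07945, PDE_07124 and PDE_09226 differed by -1.44, -1.29 and -1.41 and PDE_05193 by 1.48, all 4 called in limma. Cel7B differed by -0.13, with an interval from -0.63 to 0.38 and an adjusted p of 0.637 in limma. PDE_07928 differed by 0.58 ± 0.25 (SE), with an adjusted p of 0.0542 in limma, although its libraries did not overlap. That difference was called with quantile scaling (adjusted p = 0.0326 in limma) and with only the libraries of these strains (adjusted p = 0.0163 in limma).

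Summed over the 6 genes, FPKM was 96.74, 54.32 and 56.22 in WT and 54.79, 59.81 and 59.93 in DlaeA. It was 20.71, 27.25 and 21.57 in H2BK123A and 14.58, 13.97 and 14.57 in H2BK131A. DlaeA thus lay within the range of WT in the sum while its make-up differed. PDE_07928 held a mean of 25.6% of the sum in WT and 0.917% in DlaeA, and PDE_05193 held 0.257% and 15.5%. PDE_07945 held 35.4% in WT, 38.4% in DlaeA, 17.4% in H2BK123A and 5.77% in H2BK131A. In H2BK123A the largest share was that of PDE_09226, at 31.6%, and in H2BK131A that of Cel7B, at 30.9%. The highest value of the 6 genes stood at percentile 68.7 of the genes of its library, and none passed percentile 24.4 in H2BK123A or 20.9 in H2BK131A.

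**Figure D3:**
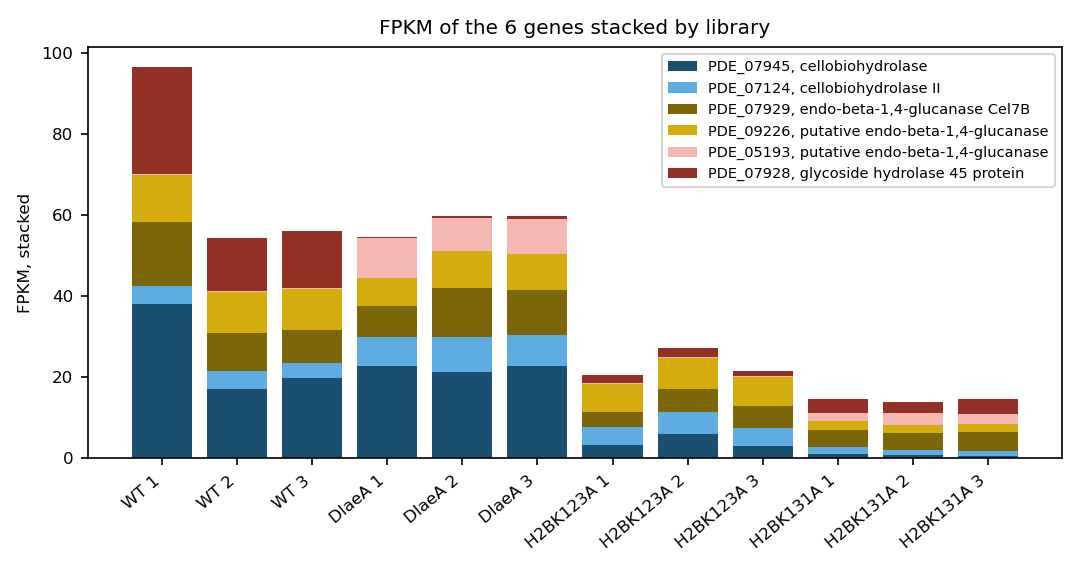
FPKM of the 6 genes stacked for each of the 12 libraries (vertical axis, FPKM from 0), one colour per gene. The totals run from 96.74 in WT 1 to 13.97 in H2BK131A 2, and the part of PDE_07928 is seen in WT and not in DlaeA, where PDE_05193 appears.

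Over the 12 libraries, which share strains and so are not independent, log2(FPKM + 1) of PDE_07945 correlated with that of PDE_07929 at r = 0.90 and with that of PDE_09226 at r = 0.89. The 2 cellobiohydrolase genes correlated at r = 0.80, and PDE_07124 with PDE_09226 at r = 0.84. PDE_05193 and PDE_07928 ran opposite, at r = -0.68.

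The tested genes most like each of the 6 over the same 12 libraries were found by Pearson's r. PDE_07945 was most like PDE_08433 and PDE_08606, named a Cu+-exporting ATPase by KEGG, both at r = 0.989. PDE_07124 was most like PDE_09123, named a peroxisomal adenine nucleotide transporter by KEGG, at r = 0.992. PDE_09226 was most like PDE_00328, named a subunit of the general transcription factor TFIID by KEGG, at r = 0.992. PDE_05193 was most like PDE_04184, PDE_00558 and PDE_00309, all at r = 0.988, of which KEGG names PDE_04184 a siderophore-iron:H+ symporter. PDE_07928 was most like PDE_08382, at r = 0.973, and Cel7B had the lowest best match, PDE_08989 at r = 0.914.

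Loci numbered up to 3 below or above each gene were set beside it, 30 loci of which 29 were tested. The order is that of the locus numbers, and coordinates are not used here. Around PDE_07124, all 6 neighbours rose in DlaeA together with it, by 0.87 to 3.66, among them the ammonium transporter gene PDE_07123 (2.13) and the allantoate permease-like gene PDE_07121 (2.36). The other mutants did not share this. In H2BK123A PDE_07122 and PDE_07123 rose (1.12 and 0.88), PDE_07125, PDE_07126 and PDE_07127 fell (-0.90, -1.11 and -0.59), and PDE_07121 was not called. In H2BK131A, where PDE_07124 fell, PDE_07121 (-1.32) and PDE_07123 (-0.43) fell and the other neighbours were not called. Over all 29 tested neighbours 12 were called higher and 8 lower in DlaeA, beside 46.3% and 23.6% of all genes. In H2BK123A 6 were higher and 9 lower, beside 33.5% and 13.1%, and in H2BK131A 6 were higher and 14 lower, beside 40.6% and 30.2%. PDE_09225 is counted as higher in each mutant, and it passed the filter on low values through the mutants alone.

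PDE_07927, numbered directly below PDE_07928 and named aspergillopepsin I (an acid protease) by KEGG, fell with it in all 3 mutants. Its differences were -4.28 in DlaeA, -3.04 in H2BK123A and -1.45 in H2BK131A, in the same order of size as those of PDE_07928. PDE_07946, next to PDE_07945 and named catechol 1,2-dioxygenase, differed by -0.87, -1.04 and -3.56. The gene next to it, PDE_07947, differed by -1.22, -0.84 and -2.02. PDE_07947 is described as a cellobiohydrolase precursor but carries the KEGG name of a muconate cyclase, and the sources used here do not settle which it is. On the other side of PDE_07945, PDE_07944 rose by 1.90 and PDE_07943 by 1.54 in H2BK131A.

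Several neighbours of PDE_09226 differed from WT by larger amounts. PDE_09227, PDE_09228 and PDE_09229 differed by -3.43, -8.51 and -8.81 in DlaeA and by -3.38, -8.44 and -7.53 in H2BK131A, all called. PDE_09225 rose by 6.70 in H2BK131A, from a mean FPKM of 0.51 in WT to 158, and by 2.01 in DlaeA and 2.41 in H2BK123A. It passed the filter on low values through the mutants alone, so a gene with this profile had to differ between strains. PDE_05193 rose in DlaeA beside PDE_05192 (1.52) and PDE_05195 (1.40), while PDE_05194, a putative carbohydrate acetylesterase gene, fell by 0.88 there and by 2.20 in H2BK131A.

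**Figure D4:**
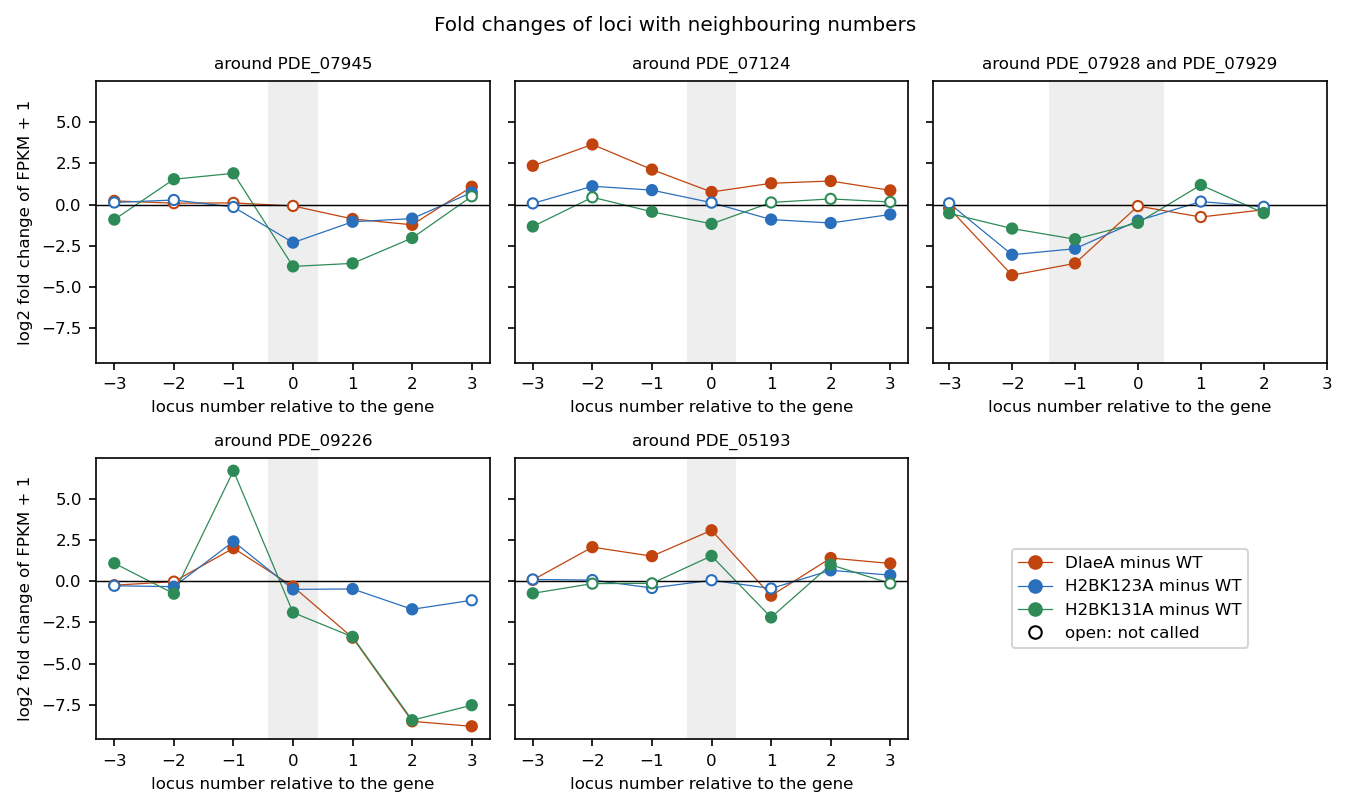
Log2 fold change against WT (vertical axis, log2(FPKM + 1) scale) of the 6 genes (grey bands) and of the loci within 3 numbers of each (horizontal axis, number relative to the gene, to PDE_07929 in the third panel), coloured by mutant, filled where called and open where not. The locus just left of PDE_07928 in the third panel, PDE_07927, falls in every mutant, and the 6 loci around PDE_07124 lie above 0 in DlaeA.

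The other genes with a protein description or KEGG name of an enzyme of cellulose breakdown number 29, and all were tested. By either name they were classed as 14 beta-glucosidase, 4 endoglucanase, 3 xyloglucan endoglucanase, 4 monooxygenase, 2 cellobiose dehydrogenase and 2 cellobiohydrolase genes. In the beta-glucosidase class, PDE_02413 and PDE_09710 are described as putative beta-xylosidases and PDE_02566 as a hypothetical protein. The cellobiose dehydrogenase genes are described as hypothetical proteins. The xyloglucan endoglucanase genes are described as putative endo-beta-1,4-glucanases, as are PDE_09226 and PDE_05193. In DlaeA 11 rose, 12 fell and 6 were not called, with a median log2 fold change of -0.04, where 46.3% of all tested genes rose and 23.6% fell. In H2BK123A 8 rose, 6 fell and 15 were not called, with a median of 0.22, where 33.5% of all genes rose and 13.1% fell. In H2BK131A 12 rose, 13 fell and 4 were not called, with a median of -0.24, where 40.6% of all genes rose and 30.2% fell. PDE_02413 and PDE_05445, counted as higher in H2BK131A, passed the filter on low values through that strain alone. PDE_05633, counted as lower in DlaeA and H2BK131A, passed it through WT and H2BK123A alone. Genes with such profiles had to differ between strains. The medians over all genes were 0.27, 0.18 and 0.13.

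Levels in this wider list went far above those of the 6 genes. The highest, PDE_02736 (beta-glucosidase I), was at a mean FPKM of 181 ± 29.8 (SD, n = 3) in WT, 51.5 in DlaeA, 443 ± 117 in H2BK123A and 10.8 ± 2.77 in H2BK131A. It fell by 1.78 in DlaeA and 3.96 in H2BK131A and rose by 1.26 in H2BK123A, so the H2B mutants moved it in opposite directions, whereas PDE_07945 fell in both. PDE_03711, a further endo-beta-1,4-glucanase gene, rose by 3.0 in H2BK131A, from a mean of 47.2 ± 4.64 to 384 ± 32.8. It fell by 1.61 in DlaeA. In H2BK123A its difference was 0.22 and not called.

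Among the other named genes, the beta-glucosidase gene PDE_01277 rose by 3.19 in DlaeA, from a mean FPKM of 8.97 to 89.3. The monooxygenase gene PDE_01261 fell by 2.23, 1.84 and 0.82 in DlaeA, H2BK123A and H2BK131A, which is the order of size seen for PDE_07928. The beta-glucosidase gene PDE_09019 fell by 2.04, 0.96 and 1.92, and PDE_02905, of the same class, rose by 1.65, 1.23 and 0.84. The xyloglucan endoglucanase gene PDE_09014, at a mean FPKM of 130 in WT, fell by 0.57 and 0.59 in DlaeA and H2BK123A, and its difference of -0.24 in H2BK131A was not called. PDE_05445, described as an exo-cellobiohydrolase and chosen after its values were seen, rose by 2.01 in H2BK131A from a mean of 0.443 to 4.81. It passed the filter on low values through H2BK131A alone, so a gene with this profile had to differ between strains.

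The table also describes 3 regulators of these genes, whose loci were taken from recall and not found by a search. ClrB (PDE_05999), an activator of cellulase genes, fell by 1.37 in DlaeA and by 0.41 in H2BK131A, and its difference in H2BK123A was -0.11 and not called. XlnR (PDE_07674), an activator of cellulase and xylanase genes, rose by 0.87 and 0.71 in DlaeA and H2BK123A and fell by 0.88 in H2BK131A. The gene of the carbon catabolite repressor (PDE_03168, recalled as CreA), which acts on glucose, rose by 0.80 and 1.02 and fell by 0.51 in the same strains. In H2BK131A, where 5 of the 6 genes fell, the genes of both activators and of the repressor fell too, as did 30.2% of all tested genes. Whether these regulators bear on the 6 genes was not tested.

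**Figure D5:**
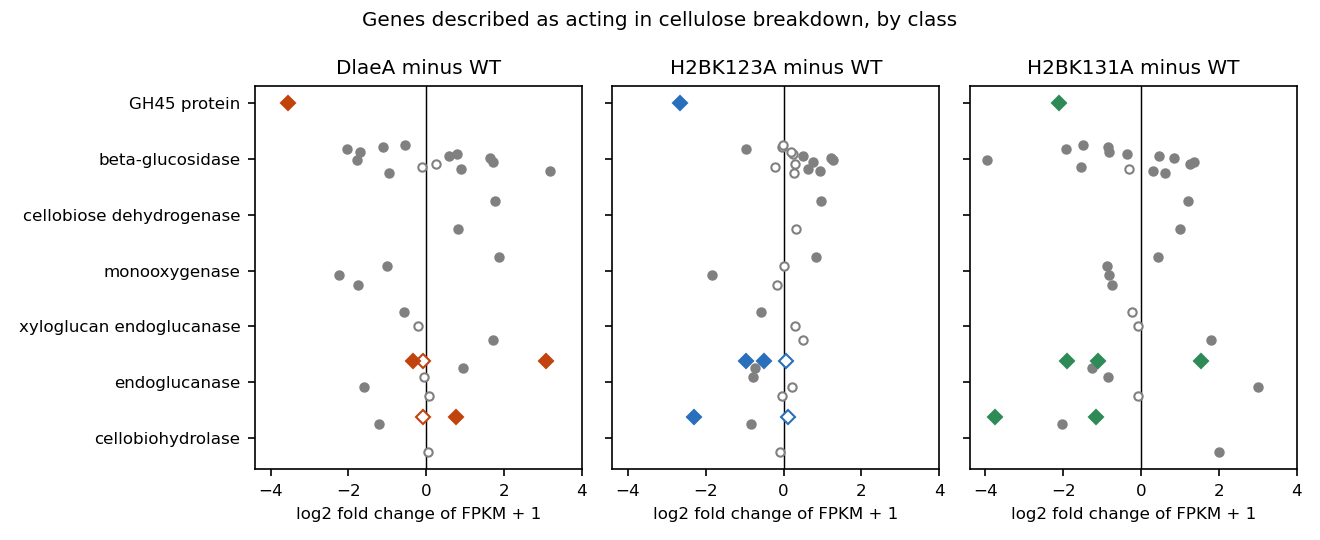
Log2 fold change against WT (horizontal axis, log2(FPKM + 1) scale) of the 6 genes (coloured diamonds) and the 29 other genes of cellulose breakdown (grey circles) by class in the 3 mutants, filled where called. Beta-glucosidase I reaches -3.96 and the endoglucanase gene PDE_03711 reaches 3.0 in H2BK131A.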

How the data were processed

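RNA of 12 libraries was profiled, 3 for each of 4 strains, grouped by the sample titles. Per the labels' protocols the libraries were digital gene expression tags cut with NlaIII and MmeI, whereas per the file headers the authors deposited FPKM, 1 value per gene and library, a unit that divides by transcript length although tag numbers do not depend on it. Not given in the sources used here are the aligner, the genome build and the gene models. The deposited FPKM hold no counts, so absolute depth is unknown and no interval for counting error is given. Of 467 low values of 135 genes, 85.9% lay within 0.1 read of a whole number of reads. For this a gene's lowest values above 0 were taken as 1 read. By library they stood at a median of 1.0 to 1.018 times the gene's median of such values. Only values close to the lowest were taken, which holds the range near 1, so whether relative depth was similar is not shown. No count model was used.

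The FPKM were transformed to log2(FPKM + 1) and fitted with limma 3.58.1 in R 4.3.3, with strain as the only term, all 12 libraries, a trend of variance on mean, two-sided tests and 8 degrees of freedom left for the residuals. Testing covered the 9431 genes that reached FPKM 1 in 3 or more libraries and left out 500. The Benjamini-Hochberg adjustment ran within each of 6 comparisons, and the threshold for a call was 0.05. Fold changes are differences of log2(FPKM + 1), which understate the change of low genes. The fit was tested on simulated data.

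The 6 genes and the lists were chosen with earlier results of these data known. Genes of cellulose breakdown were found by search words in the descriptions, 60 genes at first. This was narrowed to 34 after the descriptions were seen, by requiring every KEGG name or the protein description to match. Names of 1,3-beta-glucosidase and the SUN family were left out. Leaving out those of the 6 genes among them gave the 29 others. Named from these 29 were the 3 genes of highest mean FPKM and, in each comparison with WT, the 3 with the largest change among those called. For likeness of pattern the 3 genes with the highest Pearson's r were taken for each gene. Of these the first is given, or the first 2 for PDE_07945 and all 3 for PDE_05193. The reference table matched 0 of the loci, so names come from the deposited descriptions, and no sequence or coordinate was used. Replicate numbers were checked for pairing. Alternatives covered the pseudocount, the filter, scaling, the libraries fitted, the trend, library weights, a replicate term, each library left out, and DlaeA replicates 2 and 3 averaged, which were the closest pair.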

Additional observations from a re-analysis of the deposited data

How the results depend on the processing

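The number of the 6 genes called stayed within 1.5 times its value under every alternative run. Leaving out each library in turn, it was 3 to 4 in DlaeA against WT, 4 to 4 in H2BK123A, 6 to 6 in H2BK131A, 5 to 6 for H2BK123A against DlaeA, 6 to 6 for H2BK131A against DlaeA and 4 to 4 between the H2B mutants. Same-numbered libraries of different strains deviated with r from -0.224 to 0.211, beside -0.224 to 0.224 for libraries with different numbers. No pairing by number was seen, but with 3 libraries a strain this cannot show that there was none. With the replicate block the counts were 4, 4, 6, 5, 6 and 4, as without it.

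The 10 changes of sign all concerned differences that were not called. PDE_07124 in H2BK123A was -0.054 with median ratio scaling and -0.17 with quantile scaling. PDE_05193 in H2BK123A was -0.16 with quantile scaling and -0.015 with library weights, and PDE_07929 between the H2B mutants was 0.010 with quantile scaling. In DlaeA, PDE_07945 was 0.030 with library weights, and -0.29 to 0.26 leaving out each library, the highest being without WT 1, and PDE_07929 was 0.27 with library weights, and -0.26 to 0.18 leaving out each library, with 0.18 without WT 1 and 0.09 without DlaeA 1. The cause was not tested.

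The fall of PDE_09226 in DlaeA lost its call with only the libraries of both strains (adjusted p = 0.0813 in limma) and with library weights (-0.20, adjusted p = 0.0794 in limma), and was -0.58 with median ratio scaling. Its difference between H2BK123A and DlaeA was called with library weights (-0.27, adjusted p = 0.00504 in limma) and without DlaeA 1 (-0.28, adjusted p = 0.0451 in limma). PDE_07928 between the H2B mutants was also called with library weights (adjusted p = 0.0024 in limma). Of all called genes, the share higher than WT was 66.3%, 71.8% and 57.4% in DlaeA, H2BK123A and H2BK131A, but 50.6%, 49.9% and 48.8% with median ratio scaling and 56.0%, 51.2% and 50.6% with quantile scaling. Absolute depth is unknown, and if 1 step of FPKM, fitted to its own low values, is 1 read, PDE_05193 rests on 2 to 5 reads a library in WT and 3 to 6 in H2BK123A.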
